A study of Mus musculus with 6 samples.

Results

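The insulin-like growth factor (IGF) axis was followed through 10 genes in testis RNA: the ligands Igf1 and Igf2, the receptors Igf1r and Igf2r, and the binding proteins Igfbp2 to Igfbp7. They are 10 of the 23253 genes listed in any of 6 RNA-seq libraries of adult mouse testis. The genes were selected by symbol, on a list drawn up with the fold changes of the contrast below already known, above all that of Igfbp3. Their differences between the groups, and the calls of each tool, are therefore given as a description only. All 10 were listed in every library and passed the filter on low counts.

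IGF1 and IGF2 are secreted peptides that act through IGF1R, a receptor tyrosine kinase that signals by insulin receptor substrates, PI3 kinase and AKT. IGF2R, also the cation-independent mannose 6-phosphate receptor, has no kinase and takes IGF2 up for degradation in lysosomes. Secreted binding proteins hold the peptides in the extracellular space, and proteases that cut them set the peptides free. In the testis the axis is known for its part in Sertoli cell proliferation and in the maturation of the steroid-producing Leydig cells.

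The libraries came from testes of C57BL/6 mice aged 8 months, 3 labelled control and 3 labelled L3mbtl2 cKO, a conditional knockout of a Polycomb group protein. The labels name neither the Cre driver, nor the cells that lose the gene, nor the alleles that the controls carry. Whether the 3 libraries of each group stem from different animals is not stated. A p-value then reflects the spread among these particular libraries, part of which may be technical.

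Library totals lay between 17689205 and 18822050 expected counts, and the labelled tissue matched its markers: all 10 spermatid genes tested were listed, with summed levels of 17110 to 27020 FPKM (fragments per kilobase of transcript, scaled to library depth). L3mbtl2, the targeted gene, had expected counts of 658, 704.92 and 673 under the label control, and of 1030, 1105 and 1031 under the label cKO. It was thus higher under the label cKO, with a log2 fold change of 0.67 (SE 0.10). Its adjusted p was 0.166 by edgeR's quasi-likelihood test with Benjamini-Hochberg adjustment and 0.000497 by DESeq2. In FPKM, which divides by a transcript length that was longer under the label cKO (mean 3493 against 2717 bases), the difference was smaller: 14.17 ± 0.660 against 16.33 ± 0.663 (SD, n = 3 each), still with no overlap. On log2(FPKM + 1) and log2(FPKM + 0.1) it was 0.19 and 0.20, not called by limma. The names of the deposited tables also carry the opposite genotype from the sample labels. Each library is therefore called the library labelled control or cKO, and every direction below is that of the labels, which this gene goes against. The control-labelled libraries differed more among themselves than the cKO-labelled ones: log2 CPM (counts scaled to library size) of replicate pairs correlated across genes at 0.937 to 0.972 and at 0.981 to 0.982.

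The sequences upstream of 3 genes are shown, chosen among genes that lie apart between the groups and have a window without a GENCODE exon of the same gene. Igfbp3 had the largest difference, Igfbp2 stood for the binding proteins of higher level, and Igf2r had the smallest difference. Each run is the 250 bases before the RefSeq start on build GRCm38.p6, read 5′ to 3′ on the gene's strand. RefSeq's Igfbp3 gene extends to 7215498, so its window lies inside the annotated gene, before the main start. Whether a RefSeq exon lies in any of the windows was not checked. Capitals mark the E-box CACGTG and the E2F motif TTCCCGC, sought on both strands because the complex that contains L3MBTL2 also holds MGA with MAX, which bind E-boxes, and E2F6.
Igfbp3, chr11:7213924-7214173, minus strand: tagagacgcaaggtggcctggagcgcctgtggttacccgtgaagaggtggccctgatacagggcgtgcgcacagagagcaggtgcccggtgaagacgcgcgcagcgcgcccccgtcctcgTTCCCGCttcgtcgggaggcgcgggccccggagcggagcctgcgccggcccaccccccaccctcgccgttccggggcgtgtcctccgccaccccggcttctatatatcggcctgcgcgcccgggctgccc
Igfbp2, chr1:72824230-72824479, plus strand: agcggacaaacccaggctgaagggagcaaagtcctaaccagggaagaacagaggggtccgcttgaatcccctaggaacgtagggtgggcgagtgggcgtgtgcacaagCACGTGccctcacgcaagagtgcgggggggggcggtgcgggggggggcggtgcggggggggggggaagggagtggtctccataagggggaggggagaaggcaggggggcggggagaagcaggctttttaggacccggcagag
Igf2r, chr17:12769707-12769956, minus strand: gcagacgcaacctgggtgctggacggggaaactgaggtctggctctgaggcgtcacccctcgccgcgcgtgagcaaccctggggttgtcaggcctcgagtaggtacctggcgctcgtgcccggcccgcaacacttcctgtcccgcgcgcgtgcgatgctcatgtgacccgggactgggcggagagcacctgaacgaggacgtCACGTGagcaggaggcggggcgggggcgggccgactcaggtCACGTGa

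The Igfbp3 window held 1 E2F motif, which began 130 bases before the start, and no E-box. The Igfbp2 window held 1 E-box, 142 bases before the start, and the Igf2r window held 2, the nearer one 7 bases before it. Neither held the E2F motif, and no capitalised matches overlapped. Among 32851 RefSeq windows of the same length, 6.02% held the E-box and 3.82% held the E2F motif. RefSeq gave 14 windows for the 10 genes, all 10 of which matched: 2 windows held the E-box and 2 held the E2F motif, the other one with that motif being a second Igfbp2 start. Igf1r, and Igf2 at some of its starts, also met the conditions for being shown. Those windows are not printed and held neither motif. The GC box GGGCGG was in 6 of the 14 windows, against 32.7% of all windows. The TATA motif TATAAA was in 2, those of Igfbp4 and Igfbp6, against 12.4%. A match describes these letters and is no evidence of binding, which was not measured.

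Igf1 (chr10:87858265-87937047), the ligand made in many tissues under growth hormone, stood at 1.52, 1.11 and 3.75 FPKM in the control-labelled libraries 1, 2 and 3. It stood at 0.9, 0.91 and 0.73 FPKM in the cKO-labelled ones 1, 2 and 3. The groups did not overlap, and control 3 was well above the other 5 libraries. The log2 fold change, labelled cKO minus labelled control, was -1.22 (SE 0.42) with all libraries and -0.54 without control 3.

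Igf2 (chr7:142650768-142666816), the imprinted fetal growth factor that most mouse tissues shut down after birth, was the more abundant ligand in every library. It measured 14.15, 8.97 and 27.71 FPKM in the control-labelled libraries against 5.69, 4.65 and 6.62 in the cKO-labelled ones. Again the groups did not overlap, with the lowest control library at 8.97 FPKM and the highest cKO library at 6.62 FPKM. A log2 fold change of -1.50 (SE 0.40) resulted, and of -0.89 without control 3. The FPKM ratio of Igf2 to Igf1 was 8.26 ± 0.972 (SD, n = 3) in the control-labelled libraries and 6.83 ± 2.03 (n = 3) in the cKO-labelled ones, with overlapping ranges. Igf2os, which overlaps Igf2 by 7137 bases, was listed at 0.05 to 0.18 FPKM. The sources used here do not give whether counting used strand, so reads in that overlap cannot be assigned to either gene with certainty.

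Igf1r (chr7:67952257-68233668), the kinase receptor, had 3.93, 2.52 and 7.34 FPKM under the label control. Under the label cKO it had 1.71, 1.37 and 1.51. The groups were apart, and control 2 was again the control library nearest to the cKO group. Its log2 fold change was -1.48 (SE 0.34), and -0.99 without control 3. Insr, the related insulin receptor, had a log2 fold change of -0.49 (SE 0.20). The ratio of Igf1r to Insr was 1.0, 0.869 and 1.35 in the control-labelled libraries and 0.655, 0.496 and 0.547 in the cKO-labelled ones.

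Igf2r (chr17:12682406-12769706), the clearance receptor, was the member with the narrowest spread. Its level was 3.49, 2.77 and 3.8 FPKM in the control-labelled libraries and 2.13, 2.38 and 2.4 in the cKO-labelled ones. The groups did not overlap, but the log2 fold change was small, at -0.44 (SE 0.14), and was -0.36 without control 3. The ratio of Igf2 to its clearance receptor was lower under the label cKO, at 2.46 ± 0.442 against 4.86 ± 2.14 (SD, n = 3 each), with ranges that did not overlap. The antisense RNA Airn overlaps Igf2r by 28396 bases and was listed at up to 0.52 FPKM, so the same limit on strand applies.

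Igfbp3 (chr11:7206086-7215498), the main carrier of IGFs in serum, where it forms a complex with the acid-labile subunit, showed the widest range of the 10 genes on the log2 CPM scale, 3.97. It measured 5.36, 1.56 and 13.9 FPKM in the control-labelled libraries, resting on 232, 68 and 594 expected counts. In the cKO-labelled libraries it measured 0.77, 1.08 and 1.0 FPKM, from 35, 49 and 45 expected counts. All 3 control libraries were above all 3 cKO libraries, but control 3 was 8.51 times control 2 in CPM, whereas the highest cKO library was 1.39 times the lowest. Means were 6.94 ± 6.32 and 0.95 ± 0.161 FPKM (SD, n = 3 each). The log2 fold change was -2.74 (SE 0.69), which is 6.7-fold, and it ranked 20 of 18269 genes from the lowest. Without control 3 it was -1.76 (SE 0.454), which is 3.38-fold, and without control 2 it was -3.18 (SE 0.379).

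Igfbp2 (chr1:72824480-72852474), a binding protein with an integrin-binding motif, had 12.09, 7.72 and 17.29 FPKM under the label control. Its cKO values were close together, at 6.21, 5.92 and 5.82 FPKM, and all lay below the control range. Their log2 fold change was -0.97 (SE 0.27), and -0.66 without control 3.

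The other 4 binding proteins overlapped between the groups. Igfbp7 (chr5:77349240-77408045), a secreted protein of low affinity for IGFs that is known from blood vessels, had 100.1, 38.15 and 148.7 FPKM in the control-labelled libraries and 46.2, 40.9 and 37.87 in the cKO-labelled ones. Control 2 was at 0.884 times the cKO mean in CPM, whereas control 3 was several times above it. The log2 fold change was -1.09 (SE 0.40), and -0.63 without control 3. Igfbp6 (chr15:102144186-102149512), which prefers IGF2 over IGF1, had 22.76, 12.78 and 33.62 FPKM against 11.6, 13.51 and 9.79, a log2 fold change of -0.88 (SE 0.31), or -0.52 without control 3. Here control 2 fell inside the cKO range.

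Igfbp4 (chr11:99040005-99052655), an inhibitor of IGF action that the protease PAPPA cleaves, had 9.42, 4.91 and 13.8 FPKM against 4.47, 6.2 and 4.6. Its log2 fold change was -0.77 (SE 0.34), or -0.40 without control 3, with control 2 again inside the cKO range. Igfbp5 (chr1:72858065-72874865), which like Igfbp3 can join the ternary serum complex, was the least abundant member, at 0.35, 0.5 and 1.47 FPKM against 0.55, 0.73 and 0.22. It rested on 24 to 152 expected counts per library. Its log2 fold change of -0.52 (SE 0.61) was within its error and became 0.31 (SE 0.476) without control 3, so its sign rested on that library.

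**Figure D1:**
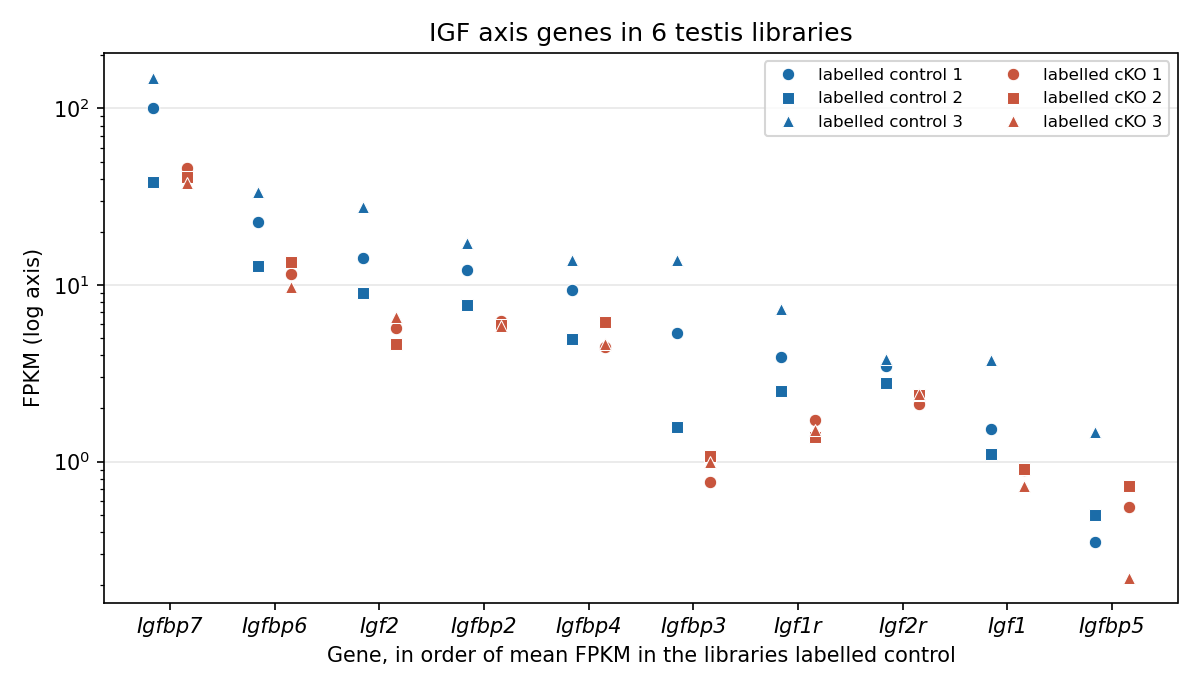
Level of the 10 IGF axis genes (FPKM, log axis) in each of the 6 libraries, 1 point a library, blue for those labelled control and red for the cKO-labelled ones, with the shape giving the replicate number. Control 3 (blue triangle) is the highest library for all 10 genes, and control 2 (blue square) is the lowest control library for 9 of the 10; Igfbp3 spans the widest range on this log axis, from 0.77 to 13.9 FPKM.

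Across the 10 genes, all 10 fitted log2 fold changes were negative, with a median of -1.03, against -0.0048 over all 18269 genes tested. Without control 3 the medians were -0.59 and -0.0033. The groups did not overlap for 6 of the 10, all lower under the label cKO, a pattern that 19.8% of all genes showed. The opposite pattern, higher with no overlap, occurred in 0 of the 10 and in 18.0% of all genes. Since the genes were selected by this contrast, nothing is read from these counts.

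By edgeR's quasi-likelihood test with Benjamini-Hochberg adjustment at 0.05, 0 of the 10 were called, and so were 0.0% of all genes; the lowest adjusted p over all genes was 0.166. At an unadjusted p under 0.05, 8 of the 10 were lower, as were 18.8% of all genes, and 0 were higher, as were 8.85%. DESeq2 called 6 lower (Igf1, Igf2, Igf1r, Igfbp2, Igfbp3 and Igfbp7) against 7.67% of all genes, and 0 higher against 0.405%. Leaving out control 2, edgeR called 9 lower, all but Igfbp5, against 20.7% of all genes, and 0 higher against 11.0%. An exact permutation test of 3 libraries against 3 cannot give a two-sided p below 0.1. As the 10 genes were selected by this contrast, nothing is read from their counts of calls either.

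**Figure D2:**
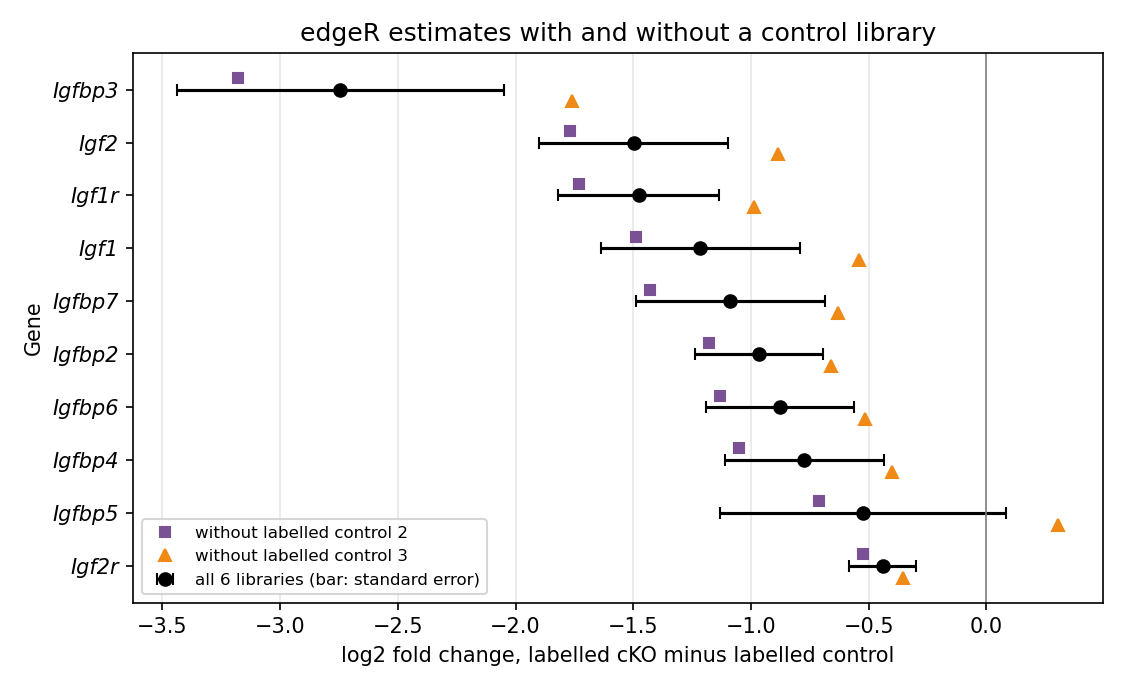
Log2 fold change of each gene, labelled cKO minus labelled control, fitted by edgeR on all 6 libraries (black circle, with a bar of 1 standard error to each side), without control 2 (purple square) and without control 3 (orange triangle). Igfbp3 moves from -2.74 to -3.18 without control 2 and to -1.76 without control 3, and Igfbp5 is the gene that changes sign.

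The order of levels differed little between the groups. In the control-labelled libraries, mean FPKM ran from Igfbp7 (95.62) through Igfbp6, Igf2, Igfbp2, Igfbp4, Igfbp3, Igf1r, Igf2r and Igf1 to Igfbp5 (0.773). Among these neighbours, ranges were separate for Igfbp7 and Igfbp6 alone. In the cKO-labelled libraries the order was Igfbp7 (41.66), Igfbp6, Igfbp2, Igf2, Igfbp4, Igf2r, Igf1r, Igfbp3, Igf1 and Igfbp5 (0.5). There the ranges of 5 neighbouring pairs were separate: Igfbp7 and Igfbp6, Igfbp6 and Igfbp2, Igfbp4 and Igf2r, Igf2r and Igf1r, and Igf1r and Igfbp3. By mean, Igfbp3 stood at place 6 under the label control and at place 8, below both receptors, under the label cKO. The control mean rests on 2 of 3 libraries: in control 2, Igfbp3 (1.56 FPKM) was already below Igf1r (2.52) and Igf2r (2.77).

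As a pool, the 6 binding protein transcripts summed to 150.1, 65.62 and 228.7 FPKM in the control-labelled libraries and to 69.8, 68.34 and 59.3 in the cKO-labelled ones. The ranges overlapped through control 2. The composition was mostly even across libraries. Igfbp7 made up 63.3 ± 4.53% of the sum under the label control and 63.3 ± 3.21% under the label cKO (SD, n = 3 each). Igfbp2 made up 9.13 ± 2.3% and 9.12 ± 0.609%, and Igfbp6 16.4 ± 2.63% and 17.6 ± 1.85%. Igfbp3 differed, at 3.57, 2.38 and 6.08% of the sum against 1.1, 1.58 and 1.69%, with no overlap. Its ratio to Igfbp7 was 0.0627 ± 0.0275 against 0.0232 ± 0.00562, and its ratio to Igfbp4 was 0.631 ± 0.349 against 0.188 ± 0.0255, each also with no overlap.

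**Figure D3:**
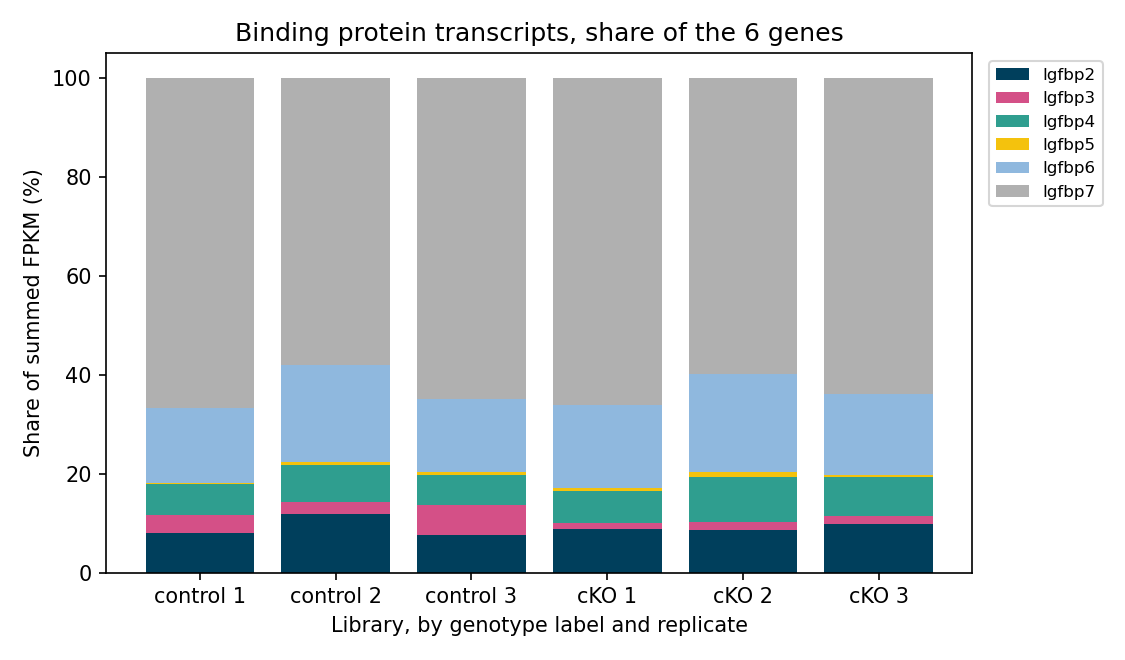
Share (%) of the summed FPKM of the 6 binding protein genes taken by each gene, 1 stacked bar a library. Igfbp7 takes 58.1 to 66.7% in every library, and the Igfbp3 band is 2.38 to 6.08% in the control-labelled libraries and 1.1 to 1.69% in the cKO-labelled ones.

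The control-labelled libraries had a common order. Control 3 was the highest of the 6 libraries in CPM for 10 of 10 genes, as it was for 40.9% of all genes tested, and the order control 3, control 1, control 2 held for 9 of 10, the exception being Igfbp5, against 34.7% of all genes. Marker lists of somatic testis cells had the same order in summed FPKM. The 12 Leydig cell genes summed to 4360, 2176 and 10420 FPKM in control 1, 2 and 3, and to 1563 to 1714 in the cKO-labelled libraries. That was 2.7, 1.35 and 6.45 times the cKO mean, next to 5.19, 1.57 and 13.4 times for Igfbp3 in CPM. The 14 Sertoli cell genes stood at 1.92, 1.29 and 3.47 times, with ranges of 913 to 2453 and 690.7 to 721.4 FPKM. The 10 macrophage genes stood at 2.37, 1.07 and 4.64 times, with ranges of 59.58 to 257.5 and 50.72 to 58.57 FPKM.

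The 12 peritubular myoid and stromal genes stood at 1.17, 0.997 and 1.41 times the cKO mean, with 10 of 12 log2 fold changes negative and a median of -0.69. Actg2, a smooth muscle actin, made up 34.5 to 68.3% of that sum and was higher under the label cKO. The other 11 genes stood at 1.82, 1.06 and 2.74 times. Without its most abundant gene, Insl3, the Leydig list stood at 2.55, 1.41 and 5.19 times. The 8 endothelial genes stood at 1.38, 1.06 and 1.79 times, 7 of 8 negative. Spermatogonial genes, 8 in number, stood at 1.36, 1.18 and 1.65 times, with 5 negative and 3 positive. Uchl1 made up 40.2 to 46.5% of that sum. The 8 spermatocyte genes went the other way, at 0.86, 0.997 and 0.743 times, as did the 10 spermatid genes, at 0.885, 0.934 and 0.667 times. The 8 lymphocyte and blood genes stood at 0.928, 0.809 and 1.12 times, with 5 negative and 2 positive of 7 tested. Their cKO mean was raised by cKO 2: the sums were 45.7, 97.31 and 42.05 FPKM in the cKO-labelled libraries. In the control-labelled libraries they were 57.24, 49.93 and 69.02 FPKM. Genes of epididymis and adipose tissue stood at 0.777, 0.9 and 0.872 times, with the epididymal markers Lcn5 and Lcn8 listed in none of the libraries. The epididymal marker Crisp1 was at 1.89 FPKM in control 3 and at 0.04 to 0.08 in the other 5 libraries, and Rnase10 was at 0.91, 0.0 and 1.51 against 2.82, 0.04 and 2.4. Log2 fold changes were negative for 12 of 12 Leydig, 14 of 14 Sertoli and 10 of 10 macrophage genes. No defining marker of the Leydig, Sertoli or macrophage lists was at 0 in all libraries. In bulk tissue, fewer cells of a type and less RNA per cell cannot be told apart, and the part of cell makeup in the IGF axis values was not tested. Relative to Lhcgr, the luteinising hormone receptor of Leydig cells, Igfbp3 had an FPKM ratio of 0.574 ± 0.221 against 0.466 ± 0.178, with overlap. Lhcgr had the lowest log2 fold change of the 12 Leydig genes, -2.13, against a median of -1.56. Relative to Insl3, a Leydig cell hormone, Igfbp3 had 0.00165 ± 0.000417 against 0.000926 ± 0.000104 (SD, n = 3 each), with no overlap.

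**Figure D4:**
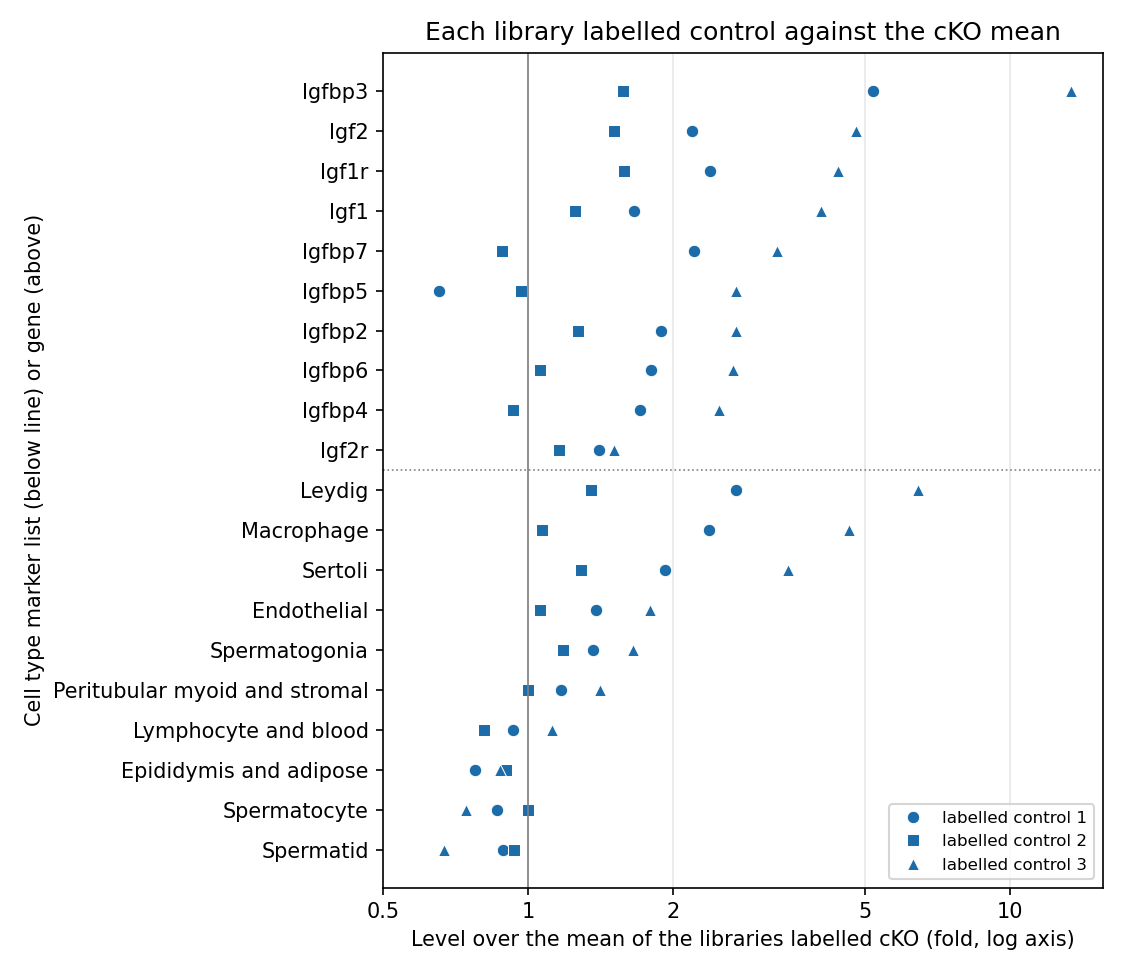
Level in each library labelled control over the mean of the 3 libraries labelled cKO (fold, log axis), in CPM for the 10 genes above the dotted line and in summed FPKM for the 10 cell type marker lists below it. Control 3 (triangle) is farthest to the right for all 10 genes and for the Leydig (6.45), macrophage (4.64) and Sertoli (3.47) lists, and farthest to the left for the spermatocyte (0.743) and spermatid (0.667) lists.

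Beyond the 10 genes, 75 genes of 4 related lists were followed, of which 74 were listed and 63 tested. Their median log2 fold change was -0.36, and 53 were negative and 10 positive, that is 84.1% negative against 50.5% of all genes. Without control 3 that median was -0.23, and the medians of the 4 lists given next were -0.18, -0.35, -0.33 and -0.14, in their order. Ranges were apart in CPM for 21 in the lower direction and 1 in the higher, against 19.8% and 18.0% of all genes. None was called by edgeR's quasi-likelihood test after Benjamini-Hochberg adjustment, with 23 lower and 1 higher at an unadjusted p under 0.05, against 18.8% and 8.85% of all genes. DESeq2 called 14 of 61 lower and 0 higher, against 7.67% and 0.405%. Without control 2, edgeR called 30 lower and 2 higher, Pdpk1 and Igf2bp3, against 20.7% and 11.0%.

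Of receptor signalling genes, 27 of 29 were tested, with 23 negative and 4 positive and a median of -0.36. DESeq2 called 5 of 27 lower, against 7.67% of all genes: Irs1, the insulin receptor substrate; the adaptors Grb2 and Grb14; and the transcription factors Foxo1 and Foxo3, which AKT holds out of the nucleus. Foxo1 had 3.08, 2.46 and 4.36 FPKM in the control-labelled libraries and 1.75, 2.01 and 1.73 in the cKO-labelled ones, with a log2 fold change of -0.74 (SE 0.21). Grb14, which inhibits the insulin receptor, had a log2 fold change of -1.38 (SE 0.42), from 4.02 ± 2.54 to 1.41 ± 0.195 FPKM (SD, n = 3 each). The most abundant members were kinases. Pdpk1, which activates AKT, had 67.7 ± 9.35 and 78.5 ± 4.89 FPKM, Mtor had 35.96 ± 4.0 and 36.8 ± 0.475, and Akt2 had 36.4 ± 8.56 and 26.7 ± 0.468, with overlapping CPM ranges in all 3. In FPKM the Akt2 ranges did not overlap, with the lowest control library at 28.05 and the highest cKO library at 27.23.

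Of genes for IGF binding and release, 18 of 23 were tested, with 15 negative and 3 positive and a median of -0.67. DESeq2 called 7 of 17 lower, against 7.67% of all genes: Stc2, an inhibitor of PAPPA, the secreted serine proteases Htra1 and Htra3, Crim1, Ctsd, Furin and Lrp1. Htra3 had 11.38, 6.68 and 19.92 FPKM in the control-labelled libraries and 4.92, 4.85 and 3.58 in the cKO-labelled ones, a log2 fold change of -1.42 (SE 0.36). Furin, the convertase that matures the IGF1R precursor, had 12.81, 5.58 and 20.63 against 4.48, 5.03 and 4.12 FPKM (log2 fold change -1.40, SE 0.39). The lysosomal protease Ctsd stood at 85.1 ± 47.1 against 33.5 ± 2.48 FPKM, and the endocytic receptor Lrp1, which binds IGFBP3, at 12.2 ± 6.396 against 4.63 ± 0.144 (SD, n = 3 each). Ctgf, a matricellular protein, had 16.4 ± 4.04 against 10.6 ± 1.56 FPKM and was not called by either tool. The protease gene Pappa itself had 2.66, 2.05 and 3.07 FPKM against 2.34, 2.53 and 2.07, and Igfals, the acid-labile subunit, had 1.11, 1.15 and 1.09 against 1.11, 1.27 and 0.81. These last 2 genes, named after their values were seen, had overlapping ranges.

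Of the growth hormone pathway, 8 of 10 genes were tested, all 8 negative in the count-based fit, with a median of -0.54. Growth hormone itself was listed in no library. The receptor Ghr stood at 2.24 ± 0.789 and 2.42 ± 0.623 FPKM, the opposite sign from its count-based log2 fold change of -0.09 (SE 0.34), both within the error. Its kinase Jak2 and the transcription factor Stat5b were the 2 of 8 genes that DESeq2 called lower, against 7.67% of all genes. Stat5b had 2.53, 1.19 and 4.15 FPKM in the control-labelled libraries and 1.06, 0.82 and 0.63 in the cKO-labelled ones, a log2 fold change of -1.54 (SE 0.43). Jak2 had 3.97 ± 2.08 against 1.67 ± 0.269 FPKM (SD, n = 3 each).

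Of imprinted growth genes and Igf2 mRNA-binding proteins, 10 of 13 were tested, with 7 negative and 3 positive and a median of -0.29, and DESeq2 called 0 of 9. Igf2bp3, an RNA-binding protein of fetal tissue and germ cells, was the most abundant, at 26.0, 29.28 and 20.8 FPKM against 33.05, 31.02 and 32.86. All cKO libraries were above all control libraries (log2 fold change 0.44, SE 0.14). Cdkn1c, an imprinted cell cycle inhibitor, had 5.49 ± 0.897 and 5.41 ± 0.461 FPKM, and Plagl1, an imprinted zinc finger protein, 1.58 ± 0.223 and 1.24 ± 0.248 (SD, n = 3 each). Igf2os had a log2 fold change of -1.39 (SE 0.38) from a level of at most 0.18 FPKM, and DESeq2 gave it no adjusted p. It rested on 11, 15 and 15 expected counts in the control-labelled libraries and 6, 5 and 4 in the cKO-labelled ones. For Igf2os, control 3 was 0.974 times control 2 in CPM, against 3.17 times for Igf2.

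The genomic neighbours of Igfbp3 and Igf2 were mostly low. Igfbp1 lies 3539 bases from Igfbp3 in RefSeq and was listed at 0.04 FPKM in control 2 and 0.19 in control 3 only. H19, 72621 bases from Igf2, had 0.84, 0.59 and 0.98 FPKM against 0.59, 0.62 and 0.55. Igfbp2 and Igfbp5 lie 5590 bases apart, and they differed in level: 12.37 ± 4.791 against 0.773 ± 0.608 FPKM in the control-labelled libraries.

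The genes most like Igfbp3 over the 6 libraries were sought among 12423 genes by the root mean square difference of centred log2 CPM. The nearest was Tnfrsf12a, the receptor for TWEAK, with a difference of 0.166. Its level was 6.92, 1.54 and 16.38 FPKM in the control-labelled libraries and 0.69, 1.32 and 0.92 in the cKO-labelled ones. Next came Lcn2, a secreted lipocalin of far higher level, with a difference of 0.214 and 536.7, 183.4 and 1780 FPKM against 138.0, 136.3 and 136.2. Klhl14 (0.259), Myoz2 (0.265) and Klk1b21 (0.304) followed. Klk1b21 belongs to a kallikrein family of near-identical copies, so its reads may be shared among them.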

How the data were processed

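Poly(A) RNA from DNase-treated total RNA of 6 testis samples was sequenced, and groups were taken from the genotype labels. The deposited tables hold, per the file headers, an expected count, an FPKM and a transcript length for each gene. RSEM, HISAT2 2.0.4, Bowtie2 2.2.5, bcl2fastq 2.16, DESeq2 and build mm10 are named in the submitters' processing notes, with no role for any. The deposited FPKM are scaled for transcript length and library depth. Each table stops at an FPKM of 0.01, and a gene absent from it was set to 0.

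Rounded expected counts were fitted with edgeR 4.0.16 (quasi-likelihood test, R 4.3.3), with TMM scaling, the filterByExpr filter (minimum count 10) and Benjamini-Hochberg adjustment over 18269 genes at 0.05. Alternatives were DESeq2 1.42.0, limma 3.58.1 on log2(FPKM + 1) and log2(FPKM + 0.1), other scalings and filters, the replicate number as a block, and each library left out; the last was also applied to the count of genes that did not overlap, an alternative added after seeing the data, as were cell type sums without the most abundant gene. The fitting code was tested on simulated data. A fold against the cKO mean for a single gene uses CPM; a list uses summed FPKM. Levels are compared between genes in FPKM only.

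The 10 genes and all lists were chosen with earlier results of these data known. From each of 4 pathway lists the text names the 3 genes with the highest mean FPKM, the 2 with the smallest p and those called. Genes like a member were the 3 nearest (5 for Igfbp3) in centred log2 CPM, with a mean FPKM of at least 1, for members that span over 1. Gene positions, windows and neighbours are RefSeq's on GRCm38.p6, and the exons that the windows were checked against are GENCODE's.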

Additional observations from a re-analysis of the deposited data

How the results depend on the processing

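The count of genes called depended on the tool and on single libraries. From 0 with edgeR on all libraries (5056 at an unadjusted p under 0.05), it went to 1436 with DESeq2, to 1 with limma on FPKM under either pseudocount, and to between 0 and 5900 when 1 library was left out, the highest without control 2. Of the 10 IGF axis genes, 6 were called by DESeq2, and 0 to 9 with 1 library left out. Of the pathway genes, 14 were called by DESeq2, and 0 to 32 with 1 library left out, again the most without control 2. The log2 fold change of L3mbtl2 was 0.69 with DESeq2, which called it, and 0.64 to 0.73 with 1 library left out, where it was called without control 2; it was 0.19 and 0.20 with limma on FPKM. The cause of these shifts was not tested. Of 136 alternative values of the 10 genes, 135 were negative, the exception being Igfbp5 without control 3. Igfbp3 ranged from -3.18 to -1.68. The 5 CPM filter removed Igfbp3 and Igfbp5, and limma's FPKM minimum removed Igfbp5, so these have no value there. The number of the 10 genes whose groups did not overlap was 6 to 9 with 1 library left out, where 21.1 to 33.8% of all genes were lower with no overlap; both highest values were without control 2.

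Same-numbered libraries did not deviate together (correlations of 0.0428, -0.00665 and -0.0388), so the numbers were not taken as pairs. With the replicate block, edgeR called 0 genes, none of the 10 among them, and L3mbtl2 had a log2 fold change of 0.67 and Igfbp3 of -2.33.

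Igfbp5 and Igfbp3 rest on few counts in the cKO-labelled libraries (24 to 80 and 35 to 49), which limits their precision, and 3 libraries a group limit every comparison.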

Other observations

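The other members also had genes of closely similar profile over the 6 libraries, given with the root mean square difference of centred log2 CPM. Igf1 was nearest to Txnip, an inhibitor of thioredoxin, with a difference of 0.0405 and 47.33, 32.71 and 108.0 FPKM in the control-labelled libraries against 25.98, 26.21 and 21.8 in the cKO-labelled ones. Litaf (0.0502) and Hpgd (0.0634), which inactivates prostaglandins, followed. Igf2 was nearest to Prps2 (0.0627), Efnb1 (0.0763) and Pm20d2 (0.0876), and Igf1r to Mocs1 (0.0799), Tmc6 (0.0819) and Gipc3 (0.0837). Igfbp7 was nearest to Crtap, a collagen-modifying protein, with a difference of 0.0521 and 22.82, 9.24 and 32.33 FPKM against 10.75, 9.05 and 8.87. Igfbp4 was nearest to Elk1 (0.0736), Slc12a4 (0.0751) and the growth factor receptor Fgfr1 (0.0807). Igfbp5, whose control libraries had another order, was nearest to S100a4 (0.206), at 0.73, 1.19 and 4.12 FPKM against 1.15, 1.39 and 0.58. For Igf2r, whose log2 CPM spanned 0.703, none was sought.

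The abundance-weighted transcript length in the deposited tables, which can shift with isoform use where a gene has several transcripts listed, could not vary for the 6 members with 1 transcript. For Igf2, with 8 transcripts, it ranged from 2898.82 to 3256.68 bases in the control-labelled libraries and from 2968.53 to 3219.28 in the cKO-labelled ones. For L3mbtl2 it was 2652.11, 2659.2 and 2838.36 bases in the control-labelled libraries and 3491.24, 3488.76 and 3498.08 in the cKO-labelled ones, with no overlap.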
